A study of Mus musculus with 12 samples.

Results

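The comparison set the hippocampus of 5xFAD mice beside that of Kcnip3 knockout mice, with 3 RNA-seq libraries of each genotype out of 12 libraries in the series. 5xFAD mice carry mutant human transgenes of familial Alzheimer disease, APP among them, driven by sequences of the neuronal gene Thy1, have intact Kcnip3 and form amyloid plaques early in life. Kcnip3 KO mice, Kcnip3 -/- per the labels, lack the transgenes. The remaining libraries, 3 of WT and 3 of Kcnip3 KO-5xFAD, are used here as levels set beside and in other fits named below. Neither group is a control of the other. Each differs from WT by its own alteration, so a gene that differs between them may have moved in 5xFAD, in Kcnip3 KO or in both. The labels give adult animals and fresh tissue of 1 hemisphere, and give no age, sex, strain or knockout allele. They do not say whether the libraries of a group came from separate animals, so p-values measure only the spread between these libraries.

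Plaques in this model are met by microglia, the resident macrophages of the brain, which gather around amyloid and switch on a set of genes that depends on the lipid receptor Trem2 and its adaptor Tyrobp. Astrocytes around plaques take on a reactive state, marked by the filament protein Gfap. KChIP3, the product of Kcnip3 and also named DREAM, is a calcium-binding protein of neurons that modulates Kv4 potassium channels and can repress transcription at DNA sites named DRE.

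The 6 libraries held 7664407 to 11310714 counts, and 15084 genes passed the filter on low counts. Levels are given as CPM, counts scaled to library size with TMM factors over the 6 libraries. The lower limit set by 3 counts was 0.272 to 0.425 CPM in 5xFAD and 0.314 to 0.362 CPM in Kcnip3 KO. Transcripts of the mitochondrial genome took 3.58 to 3.74% of counts in 5xFAD and 4.14 to 5.03% in Kcnip3 KO. Kdm5d and Ddx3y, which lie on the Y chromosome, were present in all 6 libraries. The library 5xFAD 2 stood apart in tissue next to the hippocampus. Summed choroid plexus transcripts reached 353 CPM in it and 7409 and 10302 CPM in the other 5xFAD libraries, against 3811 to 5363 CPM in Kcnip3 KO.

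Both genotypes were looked at first. These 2 groups were chosen for comparison because Thy1, whose sequences drive the transgenes, matches the label in each of their libraries, so its levels are a description and no test. Thy1 held 2816, 4243 and 2907 CPM in 5xFAD, against 748, 776 and 859 CPM in Kcnip3 KO. The Kcnip3 KO libraries held the level of WT 1 and WT 2 (747 and 887 CPM). Kcnip3 held 136, 157 and 136 CPM in 5xFAD, against 71.3, 62.1 and 124 CPM in Kcnip3 KO, a log2 fold change of 0.73 ± 0.23 (adjusted p = 0.108). The groups did not overlap, but the library labelled Kcnip3 KO 3 was close to the 5xFAD libraries and far from the other knockouts, and the difference did not pass the test. WT libraries held 159.9, 158 and 162 CPM of Kcnip3, and Kcnip3 KO-5xFAD libraries 84.9, 68.7 and 70.1 CPM, both scaled over all 12 libraries. For 2 of the genes set apart that are described below, Kcnip3 KO 3 was near the other Kcnip3 KO libraries. Kcnip3 KO 1, 2 and 3 held 11.5, 8.4 and 11.6 CPM of Eif3j2 and 59.2, 60.9 and 43.2 CPM of Pla2g4e. The genotype of Kcnip3 KO 3 was not tested. The labels WT 3 and Kcnip3 KO-5xFAD 2 went against Thy1, which stood at 2277 CPM in the library labelled WT 3 and at 3381, 926 and 2592 CPM in the libraries labelled Kcnip3 KO-5xFAD 1, 2 and 3. WT 3 is therefore left out of the levels set beside, and those WT levels are scaled over all 12 libraries. Counts over the whole gene do not show which exons were read. Mouse App, to which reads of the human transgene may or may not map, held 1111, 965 and 1069 CPM in 5xFAD, against 1270.3, 1232 and 1235 CPM in Kcnip3 KO, a log2 fold change of -0.25 ± 0.12 (adjusted p = 0.229).

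In all, 422 genes were higher in 5xFAD (2.8% of those tested) and 140 were lower (0.928%), together 3.73%, at an adjusted p under 0.05 from edgeR's quasi-likelihood test with Benjamini-Hochberg adjustment over the 15084 genes. The 2 directions differed in size. Among the higher genes, 242 differed over 2-fold and 72 over 4-fold, with a median log2 fold change of 1.13. Among the lower genes, 24 differed over 2-fold and 6 over 4-fold, with a median of -0.72. Of the 562 called genes 562 (100%) had no overlap between libraries of one group and the other, against 15.7% of all tested genes in the higher and 14.3% in the lower direction. Lack of overlap thus came with every call, and for a called gene it is a description that adds no support. The median over all tested genes was -0.00.

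**Figure D1:**
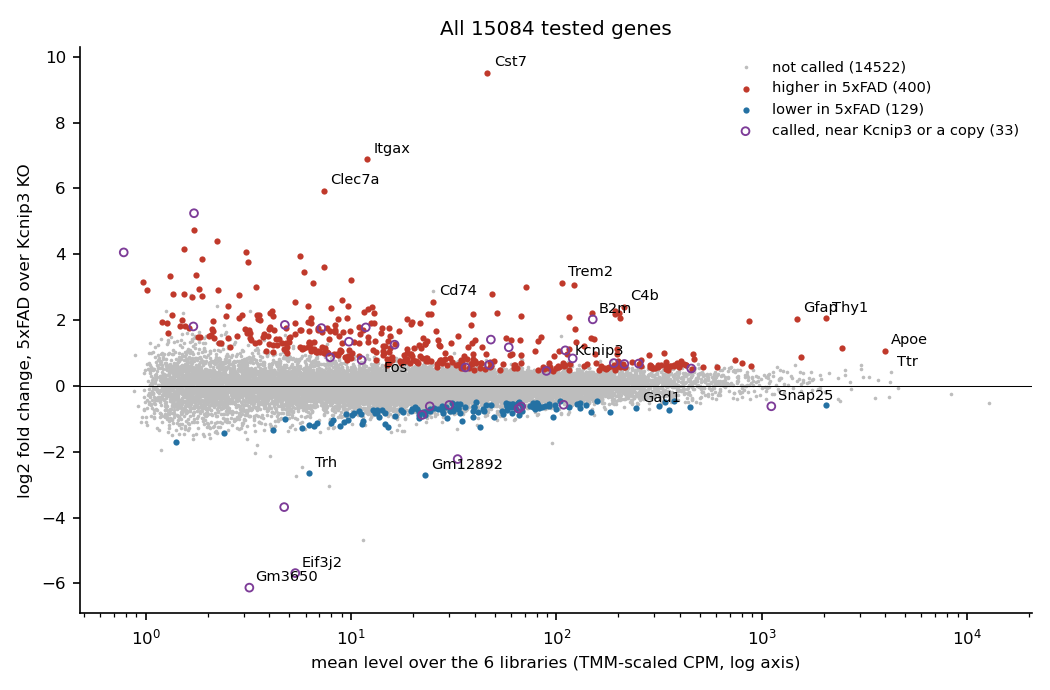
Log2 fold change (5xFAD over Kcnip3 KO) of each of the 15084 tested genes against its mean level over the 6 libraries, on a log axis of CPM. Red and blue points are the 400 higher and 129 lower called genes away from Kcnip3, or 2.77 and 0.893% of the genes there, and open purple circles are the 33 called genes within 10 Mb of Kcnip3 or matched to a gene there by sequence. The labelled genes include Cst7, Itgax and Clec7a, the 3 largest increases. Of the decreases, Gm3650 and Eif3j2, which are copies of genes near Kcnip3, lie farthest from 0 (-6.13 and -5.69).

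The called genes also differed in sequence make-up. The longest transcript of a higher gene had a median length of 2253.5 bases and a median GC content of 52.9%, and that of a lower gene 5283.5 bases and 44.6%, against 3340 bases and 50% over all tested genes. Libraries of the same genotype differed along the same axes. The correlation across genes between a library's deviation from its group mean and GC content ran from -0.33 in 5xFAD 1 to 0.29 in 5xFAD 2, and from -0.37 in Kcnip3 KO 1 to 0.23 in Kcnip3 KO 2. With the trend over length and GC content removed from each library, 311 genes (2.06%) were higher and 49 (0.325%) lower, of which 284 and 34 were also called without the correction. The part of length and GC content in single results was not tested further. Single libraries also set the counts. Without 5xFAD 1, 1155 (7.44%) were higher and 1029 (6.63%) lower. Leaving out 5xFAD 2 gave 282 higher (1.81%) and 27 lower genes (0.173%). Without 5xFAD 3, 190 (1.24%) were higher and 9 (0.0586%) lower. Leaving out Kcnip3 KO 1 gave 189 higher (1.23%) and 23 lower genes (0.15%). Without Kcnip3 KO 2, 251 (1.62%) were higher and 115 (0.741%) lower. Leaving out Kcnip3 KO 3 gave 254 higher (1.65%) and 70 lower genes (0.455%).

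**Figure D2:**
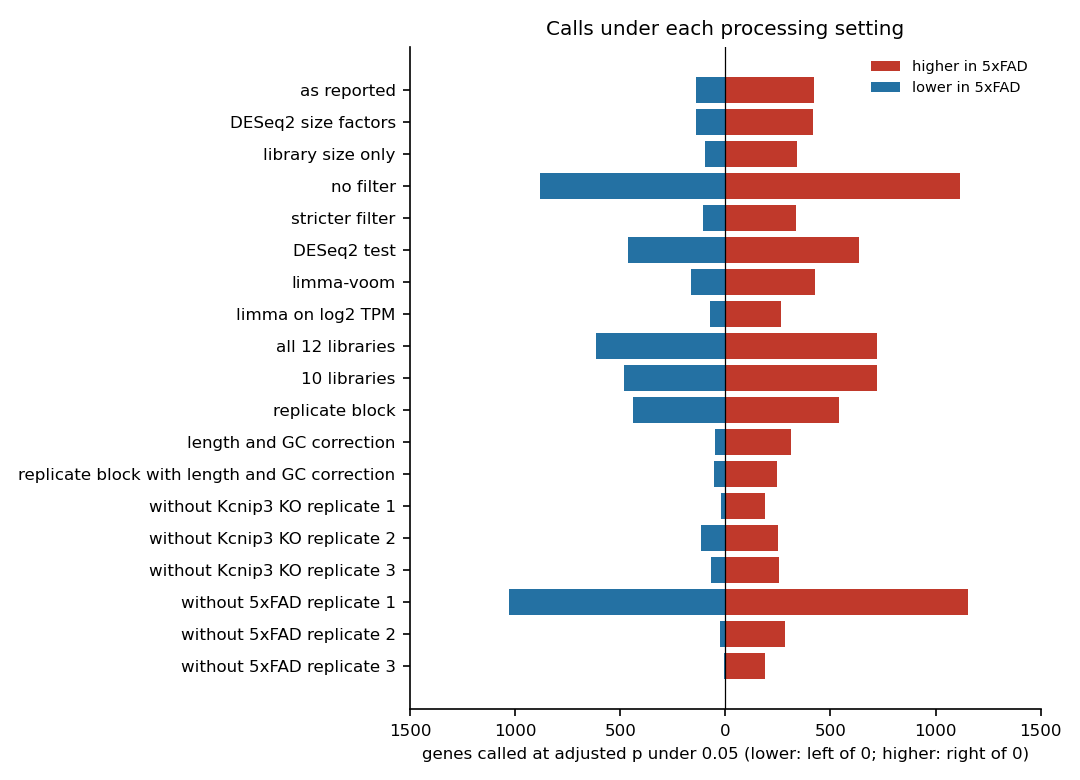
Number of genes called at an adjusted p under 0.05 under each processing setting, lower in 5xFAD to the left of 0 and higher to the right, on a linear axis. The main setting gives 422 higher and 140 lower genes, and the lower calls range from 9 without 5xFAD 3 to 1029 without 5xFAD 1.

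The following promoters are single examples from the gene groups described next, taken as the 250 bases before the start of the gene from RefSeq on GRCm38.p6. Capitals mark 3 motifs searched on both strands. They are the interferon-stimulated response element (ISRE, read as GAAA, 2 bases of any kind and GAAA), a site of the myeloid factor PU.1 (GAGGAAGT) and the cAMP response element (CRE, TGACGTCA). B2m and Cxcl10 are shown as interferon-inducible genes, C1qc as a microglial gene and Dusp1 as a gene induced by neuronal activity. Cst7 had the largest fold change of all and Ctss is a lysosomal protease of antigen presentation.
B2m (chr2:122147437-122147686, + strand): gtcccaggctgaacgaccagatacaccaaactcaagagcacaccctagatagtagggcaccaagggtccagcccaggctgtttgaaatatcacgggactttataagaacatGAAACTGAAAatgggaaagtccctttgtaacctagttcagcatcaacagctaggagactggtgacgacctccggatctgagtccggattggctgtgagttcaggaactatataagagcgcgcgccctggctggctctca
Cxcl10 (chr5:92348890-92349139, - strand): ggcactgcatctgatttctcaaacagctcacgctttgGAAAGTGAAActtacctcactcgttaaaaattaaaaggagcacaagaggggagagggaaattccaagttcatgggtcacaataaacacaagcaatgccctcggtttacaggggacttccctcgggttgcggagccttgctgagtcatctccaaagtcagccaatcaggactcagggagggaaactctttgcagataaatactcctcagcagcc
Ctss (chr3:95526536-95526785, + strand): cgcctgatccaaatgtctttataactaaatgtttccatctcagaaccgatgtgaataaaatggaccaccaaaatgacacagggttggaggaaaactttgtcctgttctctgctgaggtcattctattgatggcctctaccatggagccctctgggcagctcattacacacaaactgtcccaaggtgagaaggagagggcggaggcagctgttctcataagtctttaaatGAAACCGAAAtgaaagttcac
C1qc (chr4:136892915-136893164, - strand): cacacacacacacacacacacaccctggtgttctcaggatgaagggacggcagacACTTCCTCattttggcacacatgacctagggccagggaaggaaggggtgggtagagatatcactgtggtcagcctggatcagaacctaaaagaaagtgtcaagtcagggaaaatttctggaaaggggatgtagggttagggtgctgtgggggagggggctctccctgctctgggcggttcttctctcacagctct
Cst7 (chr2:150570165-150570414, + strand): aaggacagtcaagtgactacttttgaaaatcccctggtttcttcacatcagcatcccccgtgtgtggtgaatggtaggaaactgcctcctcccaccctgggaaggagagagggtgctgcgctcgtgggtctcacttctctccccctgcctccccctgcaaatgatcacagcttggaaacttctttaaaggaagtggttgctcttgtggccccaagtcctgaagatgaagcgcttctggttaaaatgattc
Dusp1 (chr17:26508473-26508722, - strand): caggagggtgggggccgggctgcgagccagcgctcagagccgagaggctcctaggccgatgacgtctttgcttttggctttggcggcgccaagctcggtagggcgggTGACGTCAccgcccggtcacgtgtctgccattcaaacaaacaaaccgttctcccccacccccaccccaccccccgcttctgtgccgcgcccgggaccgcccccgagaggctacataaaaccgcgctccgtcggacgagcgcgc
Over windows of 300 bases that run 50 bases past the start, the ISRE letters were in 3.46% of the 11322 tested genes with a RefSeq promoter, in 8.1% of 321 higher genes and in 8% of 100 lower genes. The PU.1 letters were in 3.36%, 9.97% and 1% of the same sets, and the CRE letters in 3.55%, 3.43% and 8%. In the list of interferon response genes, 11 of 16 promoters held the ISRE letters. The other lists held few matches, so the promoters shown do not stand for their lists. The ISRE letters were in 2 of 14 class I promoters. The PU.1 letters were in 1 of 24 plaque-associated promoters, and the CRE letters in 3 of 25 activity-regulated promoters. A match is a description of the sequence and no measure of binding, and Cst7 held none of the 3 in this window.

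Microglial genes made up the top of the comparison. Of 31 tested genes of plaque-associated microglia, 23 were higher in 5xFAD and 0 were lower, with a median log2 fold change of 1.35. Trem2 (chr17:48346401-48354147), the lipid-sensing receptor, held 151, 252 and 169.6 CPM in 5xFAD, against 19.6, 20.8 and 24.5 CPM in Kcnip3 KO, a log2 fold change of 3.14 ± 0.20 (adjusted p = 1.61e-05). Tyrobp, its signalling adaptor, held 167, 294 and 192 CPM in 5xFAD, against 24, 25.1 and 28.9 CPM in Kcnip3 KO, a log2 fold change of 3.06 ± 0.21 (adjusted p = 3.25e-05). Both were about level with WT in Kcnip3 KO, since WT 1 and WT 2 held 22.3 and 22.9 CPM of Trem2 and 29.6 and 29.1 CPM of Tyrobp.

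Several genes of this list were close to absent in Kcnip3 KO. Cst7, which encodes the protease inhibitor cystatin F, held 67.7, 121 and 87.5 CPM in 5xFAD, against 0.104, 0 and 0.228 CPM in Kcnip3 KO. That is 2378 counts in 5xFAD and 3 in Kcnip3 KO, a ratio of 809 with a 95% counting interval of 276 to 3925 (adjusted p = 5.29e-06). Itgax, the integrin CD11c, held 23.7, 28 and 19.6 CPM in 5xFAD, against 0.209, 0.355 and 0 CPM in Kcnip3 KO, at 607 counts against 5 and a ratio of 124 with an interval of 52.8 to 383 (adjusted p = 5.29e-06). Clec7a, the beta-glucan receptor dectin-1, held 15.3, 13.6 and 14.5 CPM in 5xFAD, against 0.209, 0.355 and 0.114 CPM in Kcnip3 KO, at 382 counts against 6 and a ratio of 65.0 with an interval of 29.6 to 178 (adjusted p = 5.29e-06). For all 3 the Kcnip3 KO libraries lay at or near the level of 3 counts and far below every 5xFAD library. These intervals cover counting error only.

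More abundant members of the list differed less in fold. Apoe, an apolipoprotein that carries lipids between brain cells, held 4305, 6624 and 5255 CPM in 5xFAD, against 2371, 2778 and 2556 CPM in Kcnip3 KO, a log2 fold change of 1.07 ± 0.17 (adjusted p = 0.00591). Ctsd, the lysosomal protease cathepsin D, held 1124, 1722 and 1288 CPM in 5xFAD, against 325, 374 and 366 CPM in Kcnip3 KO, a log2 fold change of 1.96 ± 0.17 (adjusted p = 6.53e-05). Lyz2, lysozyme of myeloid cells, held 126, 135 and 119 CPM in 5xFAD, against 12.3, 20.5 and 15 CPM in Kcnip3 KO, a log2 fold change of 2.99 ± 0.17 (adjusted p = 5.29e-06). Each of these also had no overlap between groups. Gpnmb, Spp1, Lpl, Cd83 and Fabp5 had a higher mean in 5xFAD without passing the test (adjusted p = 0.057 for Gpnmb, 0.102 for Spp1). Gpnmb ranged from 23.8 to 76.5 CPM among the 5xFAD libraries.

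Genes that mark resting microglia were higher as well, 9 of 16 with a median of 0.82 and 0 lower. Csf1r, the receptor on which microglial survival depends, held 265, 285 and 259 CPM in 5xFAD, against 118, 128 and 128 CPM in Kcnip3 KO, a log2 fold change of 1.11 ± 0.11 (adjusted p = 0.000145). Not every gene of the list moved. The purinergic receptor P2ry12 held 20.2, 19.2 and 18.7 CPM in 5xFAD, against 18.8, 14.2 and 23.8 CPM in Kcnip3 KO, a log2 fold change of 0.03 ± 0.19 (adjusted p = 0.935) and a 95% interval of -0.38 to 0.44, while Sall1 and Mef2c had log2 fold changes of 0.12 and -0.80 that did not pass. The summed level of the 16 genes was 4479 to 5760 CPM in 5xFAD and 2359 to 2744 CPM in Kcnip3 KO. In bulk tissue, more microglia and more of these RNAs per microglial cell cannot be told apart.

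**Figure D3:**
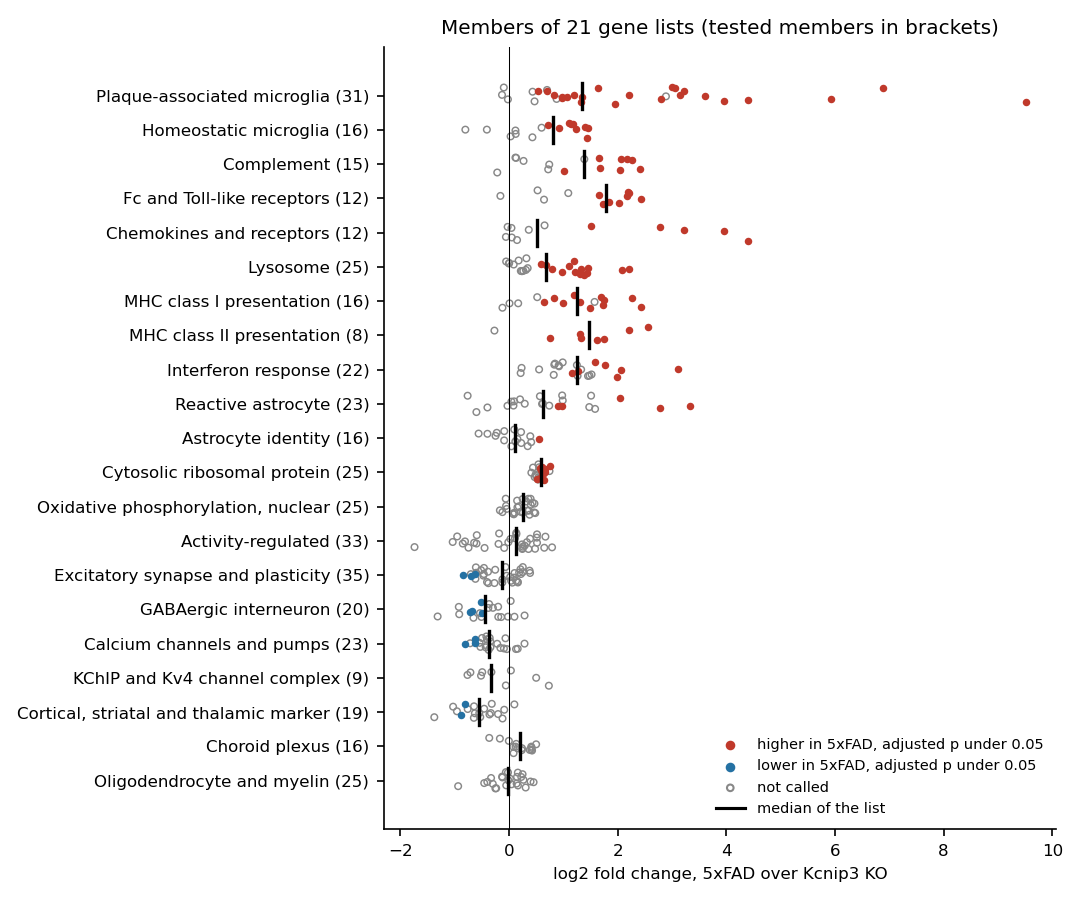
Log2 fold changes (5xFAD over Kcnip3 KO) of the tested members of 21 gene lists, 1 point per gene, with the median of each list as a black bar. Filled red and blue points passed the test in the higher and lower direction. Microglial, complement, lysosomal and antigen presentation lists lie to the right of 0, and lists of GABAergic interneurons and of calcium channels and pumps lie mostly to the left.

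Complement genes and receptors of phagocytes were also higher. Of 15 complement genes 8 were higher, with a median of 1.39. C1qa, a subunit of the protein that starts the classical pathway, held 279.7, 382 and 295 CPM in 5xFAD, against 63.7, 61.2 and 74 CPM in Kcnip3 KO, a log2 fold change of 2.27 ± 0.15 (adjusted p = 1.35e-05). C4b, the component cleaved next, held 335, 341 and 404 CPM in 5xFAD, against 51.4, 74.4 and 77.8 CPM in Kcnip3 KO, a log2 fold change of 2.41 ± 0.17 (adjusted p = 1.57e-05). C1qb and C1qc, which complete the C1q complex, had log2 fold changes of 2.05 and 2.18. Of 12 Fc and Toll-like receptor genes 8 were higher, with a median of 1.78. They included Fcgr2b (2.21), Fcgr3 (1.83), the shared signalling chain Fcer1g (2.18) and Ly86 (2.19), the partner of a Toll-like receptor homologue. Among 12 chemokine and receptor genes 5 were higher, namely Ccl3, Ccl4, Ccl6, Cxcl10 and the membrane-bound ligand Cxcl16. Ccl4 held 4.11, 4.97 and 3.75 CPM in 5xFAD, against 0.104, 0.237 and 0.228 CPM in Kcnip3 KO, a count of 110 against 5 and a ratio of 22.4 with a counting interval of 9.33 to 70.5. C4b has a close paralogue, as have Ccl3 and Lyz2, and how the counting split reads between copies is not given.

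Lysosomal genes were higher in 14 of 25, with a median of 0.68. Ctss, cathepsin S, held 302, 383 and 314 CPM in 5xFAD, against 66.5, 72.6 and 77.9 CPM in Kcnip3 KO, a log2 fold change of 2.20 ± 0.13 (adjusted p = 6.72e-06). Laptm5, a lysosomal membrane protein of immune cells, had a log2 fold change of 2.09, Grn, the precursor of granulins, 1.45, and Hexa, a lysosomal hexosaminidase subunit, 1.32. The calls on these 4 genes held under every setting tried.

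Antigen presentation and interferon response genes were higher as well. Of 16 MHC class I presentation genes 11 were higher in 5xFAD than in Kcnip3 KO, with a median of 1.25. Of 8 MHC class II presentation genes 7 were higher, with a median of 1.48. This count was 4 without 5xFAD 3 or without Kcnip3 KO 1 and 5 with the length and GC correction. Of 22 interferon response genes all 22 averaged higher in 5xFAD and 7 passed the test, with a median of 1.26. The 7 calls became 8, 13 and 4 without 5xFAD 1, 2 and 3, 3, 4 and 3 without Kcnip3 KO 1, 2 and 3, and 12 with DESeq2.

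H2-D1, a heavy chain of class I, held 214, 169 and 185 CPM in 5xFAD, against 44.4, 63.4 and 63.8 CPM in Kcnip3 KO, a log2 fold change of 1.73 ± 0.16 (adjusted p = 9.41e-05), with 85.6 and 65.5 CPM in WT 1 and WT 2. Psmb8, a subunit of the immunoproteasome, held 26.3, 22 and 22.4 CPM in 5xFAD, against 6.68, 7.69 and 6.72 CPM in Kcnip3 KO, a log2 fold change of 1.74 ± 0.17 (adjusted p = 0.000114), with 11.2 and 11.3 CPM in WT 1 and WT 2. Cd74, the invariant chain of class II, held 58.2, 35.8 and 34.7 CPM in 5xFAD, against 8.77, 7.69 and 5.24 CPM in Kcnip3 KO, a log2 fold change of 2.56 ± 0.25 (adjusted p = 0.000285), with 21.5 and 15.3 CPM in WT 1 and WT 2. In each case every Kcnip3 KO library was below both WT libraries and every 5xFAD library above them. H2-K1 (1.48), H2-Q4 (1.70), H2-Ab1 (1.75) and H2-Aa (1.63) were also called. Class I genes resemble each other in sequence, so counts of single members are uncertain.

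B2m, which encodes beta-2 microglobulin, the light chain of every class I molecule, lies 5.3 Mb from Kcnip3 and is therefore set apart. It held 253, 242 and 228 CPM in 5xFAD, against 65.1, 55.5 and 57.6 CPM in Kcnip3 KO, a log2 fold change of 2.02 ± 0.12 (adjusted p = 5.29e-06), with 115 and 95.9 CPM in WT 1 and WT 2. The 3 groups did not overlap. Its partners H2-D1 and H2-K1 lie on another chromosome, chromosome 17. The part of sequence near Kcnip3 in the level of B2m was not tested.

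Among interferon response genes, Ifi27l2a held 17.9, 6.67 and 10.5 CPM in 5xFAD, against 1.46, 1.42 and 1.14 CPM in Kcnip3 KO, a log2 fold change of 3.12 ± 0.38 (adjusted p = 0.00088). Bst2, the antiviral membrane protein tetherin, held 24.2, 17 and 24.3 CPM in 5xFAD, against 7.21, 4.61 and 7.4 CPM in Kcnip3 KO, a log2 fold change of 1.77 ± 0.22 (adjusted p = 0.00088). Oasl2, a member of the oligoadenylate synthetase family, held 23.6, 7.95 and 14.7 CPM in 5xFAD, against 3.76, 3.31 and 3.99 CPM in Kcnip3 KO, a log2 fold change of 2.06 ± 0.36 (adjusted p = 0.0148). WT 1 and WT 2 held 2.76 and 3.4 CPM of Ifi27l2a, 10.1 and 9.996 CPM of Bst2 and 8.4 and 6.59 CPM of Oasl2, between the 2 groups, except that Oasl2 in WT 1 exceeded its level in 5xFAD 2. The 5xFAD libraries spread widely, with 5xFAD 1 highest and 5xFAD 2 lowest for Ifi27l2a and Oasl2. Isg15 (1.33, adjusted p = 0.0652) and Ifit3 (0.99, adjusted p = 0.0791) did not pass. The call on Oasl2 was lost without any 1 of the Kcnip3 KO libraries (adjusted p = 0.0924, 0.0559 and 0.0537).

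The order of the group means was counted for each list in a fit of 10 libraries. It added WT 1, WT 2, Kcnip3 KO-5xFAD 1 and Kcnip3 KO-5xFAD 3. Kcnip3 KO lay below WT and WT below 5xFAD for 14 of 16 class I, 7 of 8 class II and 17 of 22 interferon genes. It also held for 25 of 25 ribosomal protein, 16 of 25 lysosomal, 15 of 25 oxidative phosphorylation, 18 of 31 plaque-associated and 4 of 16 resting microglial genes. The order requires 5xFAD above Kcnip3 KO, which was already known for most members of the higher lists. Of the 7447 tested genes with a higher mean in 5xFAD than in Kcnip3 KO, 50.3% had it. Of such genes within single lists, 14 of 15 class I, 7 of 7 class II, 17 of 22 interferon and 18 of 28 plaque-associated genes had it. So did 25 of 25 ribosomal protein, 15 of 20 oxidative phosphorylation, 16 of 23 lysosomal and 4 of 14 resting microglial genes. No difference between lists was tested. The median log2 fold change of class I genes was 0.64 in 5xFAD over WT and -0.47 in Kcnip3 KO over WT, that of class II genes 0.66 and -0.74, and that of interferon genes 0.58 and -0.59. For plaque-associated genes these medians were 1.42 and -0.06, for ribosomal protein genes 0.43 and -0.15, and for all tested genes 0.01 and 0.01. Both contrasts with WT share the same WT libraries, so their medians are not independent. At an adjusted p under 0.05 in that fit, 3 class I, 1 class II and 1 interferon genes differed between 5xFAD and WT, and 0 genes of these lists passed by edgeR between Kcnip3 KO and WT, where 7 genes (0.0435%) were called in all, against 209 (1.3%) between 5xFAD and WT.

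**Figure D4:**
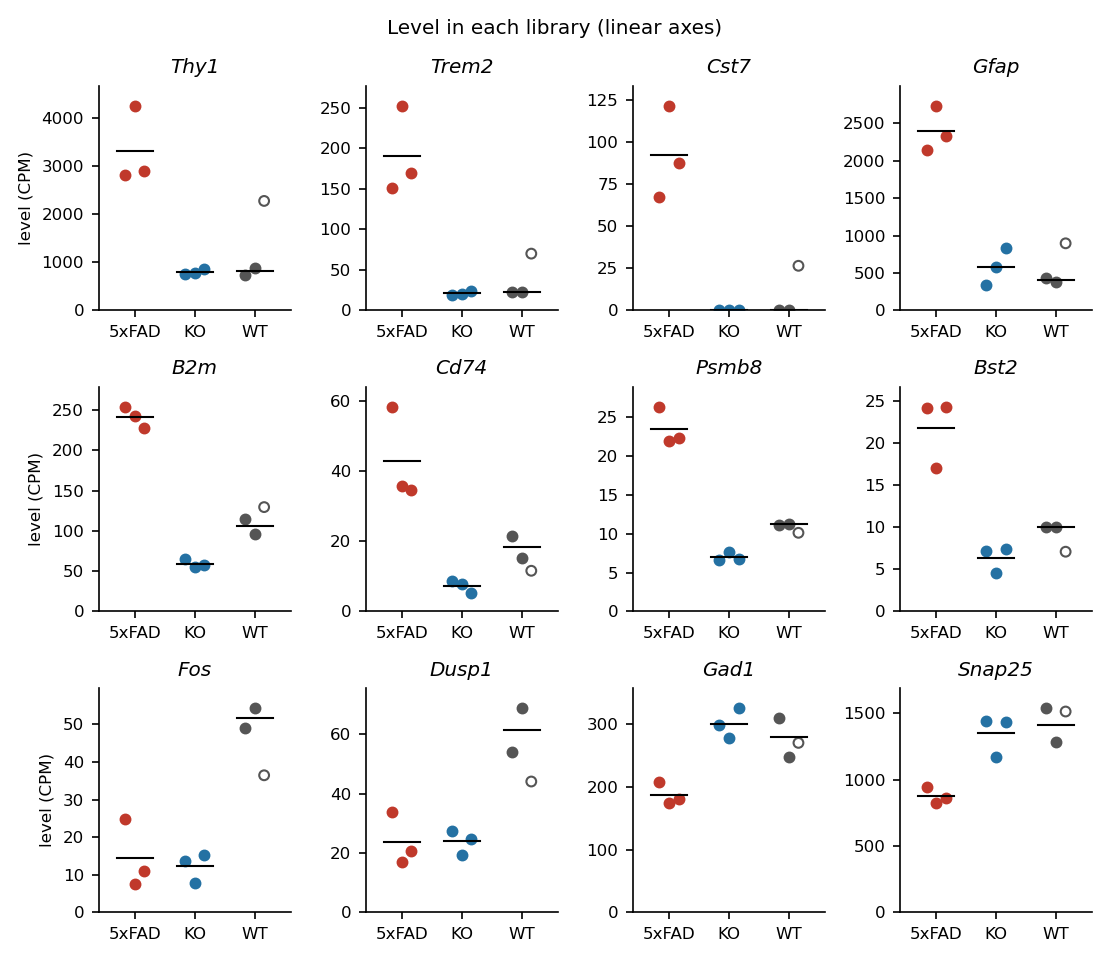
Level of 12 genes in each 5xFAD, Kcnip3 KO (KO) and WT library, in CPM on linear axes that start at 0. Lines are group means, and the WT line leaves out the open circle, WT 3, whose Thy1 level goes against its label. B2m, Cd74, Psmb8 and Bst2 are ordered 5xFAD, WT, Kcnip3 KO from high to low, while Fos and Dusp1 are low in both 5xFAD and Kcnip3 KO.

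Reactive astrocyte genes were higher in 5 of 23, with a median of 0.62. The count was 3 without 5xFAD 2, 5xFAD 3 or Kcnip3 KO 2 and 8 without Kcnip3 KO 3. Gfap held 2148, 2723 and 2326 CPM in 5xFAD, against 340.2, 577 and 830.0 CPM in Kcnip3 KO, a log2 fold change of 2.04 ± 0.29 (adjusted p = 0.00609). All 5xFAD libraries lay well above all Kcnip3 KO libraries, which themselves spread more than 2-fold. Without 5xFAD 2 the call was lost (adjusted p = 0.103). Vim, another filament protein, held 131, 117 and 134 CPM in 5xFAD, against 45.8, 72.9 and 85.9 CPM in Kcnip3 KO (log2 difference of 0.90 ± 0.20, adjusted p = 0.0376). Tgm1, Cxcl10 and Srgn were the other called members. Serpina3n, a protease inhibitor, held 136, 174 and 159 CPM in 5xFAD, against 39.8, 37.9 and 86.7 CPM in Kcnip3 KO and did not pass (log2 difference of 1.51 ± 0.33, adjusted p = 0.0618). Of 16 genes of astrocyte identity 1 was higher, Mlc1 (0.55), with a median of 0.11, and without any 1 library other than 5xFAD 1 the list held 0 calls. Their summed level was 9244 to 9920 CPM in 5xFAD and 8315 to 9433 CPM in Kcnip3 KO.

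Genes induced by neuronal activity gave 0 calls by edgeR among 33 tested. Their median was 0.14 and turned sign with the libraries, to -0.35 without 5xFAD 1 and -0.04 without Kcnip3 KO 2, and to -0.04 with the length and GC correction. DESeq2, which called 4.21% of all genes higher and 3.06% lower, called 2 of them, Junb (log2 0.67) and Dusp4 (log2 -0.81). Limma-voom, with 2.81 and 1.07%, called 0. Of the 33, 6 had an unadjusted p under 0.05, against 1943 higher and 1926 lower of all 15084 tested genes by edgeR. Several of the 33 genes were lower than in WT in both groups. Fos, a transcription factor subunit and classical marker of recent activity, held 24.8, 7.67 and 11.1 CPM in 5xFAD, against 13.6, 7.81 and 15.4 CPM in Kcnip3 KO, with 49 and 54.2 CPM in WT 1 and WT 2. Dusp1, a MAP kinase phosphatase whose promoter holds the CRE letters shown above, held 33.9, 16.9 and 20.5 CPM in 5xFAD, against 27.6, 19.4 and 24.8 CPM in Kcnip3 KO, with 54.1 and 68.7 CPM in WT 1 and WT 2. Nr4a1, an orphan nuclear receptor, held 131, 71 and 75.7 CPM in 5xFAD, against 86.3, 60.6 and 69.2 CPM in Kcnip3 KO, with 181 and 211 CPM in WT 1 and WT 2.

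The 5xFAD and Kcnip3 KO libraries overlapped for these 3 genes and all lay below both WT libraries. The log2 difference between 5xFAD and Kcnip3 KO was 0.24 ± 0.46 for Fos with a 95% interval of -0.84 to 1.32, -0.01 ± 0.25 for Dusp1 with -0.56 to 0.54, and 0.36 ± 0.24 for Nr4a1 with -0.18 to 0.90. A difference of a size within these intervals was not detectable with these libraries. The library Kcnip3 KO 3 held 338 CPM of Nptx2 and 162 CPM of Egr3, against 64.5 and 38.8 CPM and 57.9 and 30.5 CPM in the other Kcnip3 KO libraries. Group means of both below WT were found for 18 of the 33 genes, against 22.6% of all tested genes. The same was found for 12 of 15 meningeal, 14 of 20 endothelial and mural and 7 of 9 blood cell genes, whose part in it was not tested. In the edgeR fit of 10 libraries with WT 1 and WT 2, 0 of the 33 passed the test in either group against WT, so these lower levels are given as values.

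Synaptic and channel genes were among the lower ones, with small differences. Of 20 GABAergic interneuron genes 17 averaged lower in 5xFAD and 4 were called, with a median of -0.44. Gad1, which makes most of the GABA of the brain, held 208, 175 and 179.9 CPM in 5xFAD, against 299, 277 and 325 CPM in Kcnip3 KO, a log2 fold change of -0.68 ± 0.12 (adjusted p = 0.0106). Gad2, its paralogue at synaptic terminals, held 65.3, 65.6 and 58.8 CPM in 5xFAD, against 96, 85.2 and 91 CPM in Kcnip3 KO, a log2 fold change of -0.52 ± 0.11 (adjusted p = 0.028). Erbb4, a neuregulin receptor of interneurons, held 11.2, 10.9 and 9.82 CPM in 5xFAD, against 19.5, 14.8 and 18.3 CPM in Kcnip3 KO, a log2 fold change of -0.72 ± 0.17 (adjusted p = 0.0418). Kcnc2, a fast potassium channel of interneurons, was also lower (-0.50). All 5xFAD libraries lay below all Kcnip3 KO libraries for these 4 genes. The list held 7 calls without 5xFAD 1, 0 without 5xFAD 3 and 1 without 5xFAD 2, Kcnip3 KO 1 or Kcnip3 KO 3, while its median stayed between -0.35 and -0.45 over the 6 omissions. With the length and GC correction Gad1 was kept (adjusted p = 0.00906) and the other 3 were not (adjusted p = 0.25 for Gad2, 0.349 for Erbb4 and 0.167 for Kcnc2).

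Of 35 genes of excitatory synapses and plasticity 3 were lower and 0 higher, with a median of -0.12. They were Nrxn3, a presynaptic adhesion protein (-0.84), and Snap25 and Plcb1, which lie within 10 Mb of Kcnip3. Snap25, a SNARE protein of vesicle release, held 946, 824 and 862 CPM in 5xFAD, against 1442, 1172 and 1433 CPM in Kcnip3 KO, a log2 fold change of -0.62 ± 0.14 (adjusted p = 0.0307), with 1536 and 1284 CPM in WT 1 and WT 2. Plcb1, a phospholipase C of glutamate and acetylcholine signalling, had a log2 fold change of -0.69. Both lost the call with the length and GC correction (adjusted p = 0.158 for Snap25 and 0.184 for Plcb1). Of 23 genes of calcium channels and pumps 20 averaged lower and 3 were called, with a median of -0.37. Atp2a2, the calcium pump SERCA2 of the endoplasmic reticulum, held 397, 309.6 and 347 CPM in 5xFAD, against 569.9, 522 and 535 CPM in Kcnip3 KO, a log2 fold change of -0.63 ± 0.13 (adjusted p = 0.0217). Cacnb4 (-0.63) and Cacna2d1 (-0.80), auxiliary subunits of voltage-gated calcium channels, were called without the correction and not with it, and Nrxn3 had an adjusted p of 0.0516 with it. Each of these 6 synaptic and calcium genes lost its call without 5xFAD 3 and without Kcnip3 KO 1. Without 5xFAD 1, 8 genes were lower in each of the 2 lists, and 2 genes of the excitatory synapse list were higher.

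Of 9 genes of the KChIP and Kv4 channel complex, Kcnip3 itself among them, 0 were called by edgeR, with a median of -0.32. At an unadjusted p under 0.05 there were 5, with Kcnip3 included. Over all 15084 tested genes, 1943 higher and 1926 lower ones had such a p by edgeR, to which the App list below compares as well. DESeq2 called 1 of the 9 higher and 2 lower. Kcnd2, the Kv4.2 channel of pyramidal dendrites, held 26.7, 25.3 and 25.8 CPM in 5xFAD, against 37.5, 37.9 and 33.9 CPM in Kcnip3 KO, a log2 fold change of -0.49 ± 0.12 (adjusted p = 0.05), which did not pass. Kcnd3, the Kv4.3 channel, held 41.9, 32.2 and 35.2 CPM in 5xFAD, against 58.9, 43.4 and 76.3 CPM in Kcnip3 KO (log2 difference of -0.71 ± 0.19, adjusted p = 0.0677). The other members of the KChIP family had log2 fold changes of -0.51 for Kcnip1, 0.50 for Kcnip2 and -0.32 for Kcnip4. In 16 reported targets of DREAM, Gfap was higher and Slc8a1, the sodium-calcium exchanger, was lower (-0.57, and adjusted p = 0.694 with the length and GC correction), with a median of 0.06. Of 15 relatives and proteases of App 0 were called by edgeR, and 3 had an unadjusted p under 0.05. Psenen, a gamma-secretase subunit, had the smallest p (log2 difference of 0.41 ± 0.13, adjusted p = 0.0907).

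Markers of dissection and of other cell types were read the same way. Of 19 cortical, striatal and thalamic markers 18 averaged lower in 5xFAD and 2 were called, Tac1 (-0.89) and Rorb (-0.81), with a median of -0.55. The list held 8 calls and a median of -0.82 without 5xFAD 1, 1 call without Kcnip3 KO 3, and 0 calls without any other 1 library, with a median of -0.32 without Kcnip3 KO 2. With the length and GC correction Rorb was not called (adjusted p = 0.239). Their summed level was 477 to 746 CPM in 5xFAD and 653 to 926 CPM in Kcnip3 KO. The part of the dissection in the lower neuronal genes was not tested. Of 17 pyramidal neuron markers Rgs14, a CA2 gene, was higher (0.68), a call lost with the length and GC correction (adjusted p = 0.0921) and without any 1 library other than 5xFAD 1. By comparison 0 of 11 dentate granule, 25 oligodendrocyte, 16 choroid plexus, 15 meningeal, 20 endothelial and 9 blood cell genes were called by edgeR. At an unadjusted p under 0.05 there were 1, 3, 0, 0, 4 and 0 of them, and DESeq2 called 1 dentate granule and 1 oligodendrocyte gene. Over all 15084 tested genes, 1943 higher and 1926 lower ones had an unadjusted p under 0.05 by edgeR. Choroid plexus genes had an SD of library medians of 1.62 on the log2 scale, pooled over the 2 groups, so a difference there was not detectable with all 6 libraries. Without 5xFAD 2, whose summed choroid plexus level was the lowest, 4 of the 16 genes were called higher, with a median of 0.70.

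Ribosomal protein genes showed small differences in 1 direction. Of 25 listed genes all 25 averaged higher in 5xFAD and 14 were called, with a median of 0.59 and a range of 0.41 to 0.76. Rpl10 held 440.0, 600.2 and 495 CPM in 5xFAD, against 324, 306 and 348 CPM in Kcnip3 KO, a log2 fold change of 0.65 ± 0.14 (adjusted p = 0.0264). Over all 82 tested protein-coding Rpl and Rps genes, a set counted after the list was seen, 43 were higher and 0 lower. With the length and GC correction 17 of the 82 and 5 of the 25 were higher, and the median of the 25 was 0.30. Without Kcnip3 KO 1, Kcnip3 KO 2 or 5xFAD 3 the list held 0 calls, and without Kcnip3 KO 3 or 5xFAD 2 it held 1 and 3, and without 5xFAD 1 it held 25. Ribosomal genes have short transcripts and many processed pseudogenes, and their part in these counts was not tested. Of 25 nuclear genes of oxidative phosphorylation 0 were called by edgeR, with 11 at an unadjusted p under 0.05 and a median of 0.25. Over all 15084 tested genes, 1943 higher and 1926 lower ones had such a p by edgeR. DESeq2 called 2 of the 25 higher, and without 5xFAD 1 edgeR called 10.

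Away from Kcnip3 and leaving out copies of genes there, the largest decreases were these. Gm12892, a processed pseudogene on chromosome 4, held 5.11, 6.67 and 6.25 CPM in 5xFAD, against 29, 47.8 and 42.1 CPM in Kcnip3 KO, a log2 fold change of -2.72 ± 0.21 (adjusted p = 3.16e-05). WT 1 and WT 2 held 5.21 and 5.85 CPM, so 5xFAD was at the WT level and Kcnip3 KO above it, while Kcnip3 KO-5xFAD libraries held 4.99, 4.45 and 40.5 CPM. How the counting split reads between this pseudogene and similar sequences is not given. Trh, the precursor of thyrotropin-releasing hormone, held 2.62, 1.42 and 1.16 CPM in 5xFAD, against 17.3, 8.28 and 6.6 CPM in Kcnip3 KO, a log2 fold change of -2.66 ± 0.44 (adjusted p = 0.0127), with 7.02 and 11.1 CPM in WT 1 and WT 2. Nos1ap, an adaptor of neuronal nitric oxide synthase, held 33, 16.8 and 24.9 CPM in 5xFAD, against 62.4, 49.7 and 67.8 CPM in Kcnip3 KO, a log2 fold change of -1.26 ± 0.22 (adjusted p = 0.0143). Other decreases past the test were the imprinted gene Peg10 (-1.25), the cGMP-dependent kinase Prkg2 (-1.33), the orphan receptor Esrrg (-1.28) and the peptide receptor Qrfpr (-1.44). With the length and GC correction the calls on Prkg2, Esrrg and Qrfpr were lost (adjusted p = 0.0733, 0.063 and 0.0595). Lower calls outside the genes set apart, 129 in all, depended on single libraries. They numbered 977, 21 and 5 without 5xFAD 1, 2 and 3, and 19, 105 and 65 without Kcnip3 KO 1, 2 and 3. The non-coding 4930519K11Rik (-1.71) overlaps Kcnma1 on the other strand, and without a stated strand setting their reads cannot be told apart. Among the largest increases outside the lists, with the genes set apart again left out, were Pdcd1, the inhibitory receptor PD-1 (86 counts against 3, ratio 29.3 with a counting interval of 9.68 to 145), and Hcar2, a hydroxycarboxylic acid receptor (89 counts against 6, ratio 15.1, 6.69 to 42.3). Ifi204, Bcl2a1b and Asb10 were also among the 10 largest of these, and Ifi204 and Bcl2a1b belong to families of close copies.

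Genes close to Kcnip3 were set apart. Sequence flanking a knockout can come from another strain, and whether it does here was not tested. Of 206 tested genes within 10 Mb, 12 were higher and 6 lower in 5xFAD, which is 8.74%, against 3.66% of the genes not set apart. By side, 14 of 121 genes at lower coordinates (11.6%) and 4 of 84 at higher coordinates (4.76%) were called, the nearest 3.13 Mb away. Within 5 Mb 3 of 105 were called. Pla2g4e, a cytosolic phospholipase A2, held 8.97, 12.9 and 12.9 CPM in 5xFAD, against 59.2, 60.9 and 43.2 CPM in Kcnip3 KO, a log2 fold change of -2.22 ± 0.19 (adjusted p = 5.21e-05), with 10.6 and 14.2 CPM in WT 1 and WT 2. The Kcnip3 KO-5xFAD libraries held 47.1, 42.6 and 50.1 CPM of it. Ivd, a dehydrogenase of leucine breakdown, held 136, 156 and 157 CPM in 5xFAD, against 72.7, 81.9 and 58.3 CPM in Kcnip3 KO, a log2 fold change of 1.08 ± 0.14 (adjusted p = 0.001). Bub1b, a mitotic checkpoint kinase, held 4.98, 2.13 and 2.94 CPM in 5xFAD, against 0, 0.237 and 0 CPM in Kcnip3 KO, at 88 counts against 2 and a ratio of 44.9 with a counting interval of 12.1 to 377.

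**Figure D5:**
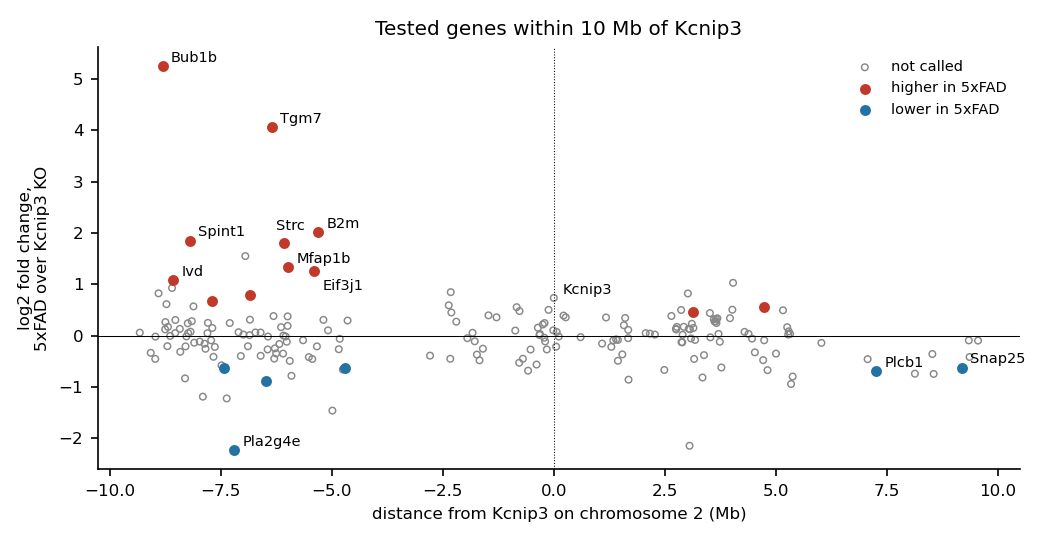
Log2 fold change (5xFAD over Kcnip3 KO) of the 206 tested genes within 10 Mb of Kcnip3 against their distance from it on chromosome 2 in Mb, with lower coordinates to the left. Filled points passed the test. To the left, 10 genes higher and 4 lower in 5xFAD lie 4.71 to 8.81 Mb away, among them B2m, Bub1b and Pla2g4e. To the right, 2 genes higher and 2 lower in 5xFAD lie 3.13 to 9.19 Mb away.

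Some of these genes have near-identical copies elsewhere, and in 2 such pairs gene and copy differed in opposite directions. Eif3j1, a translation initiation subunit near Kcnip3, held 22.8, 22.9 and 23.1 CPM in 5xFAD, against 9.92, 10.2 and 8.77 CPM in Kcnip3 KO, a log2 fold change of 1.25 ± 0.15 (adjusted p = 0.000661). Its copy Eif3j2 on chromosome 18, with 99.4% identity over 2379 bases, held 0.374, 0 and 0.178 CPM in 5xFAD, against 11.5, 8.4 and 11.6 CPM in Kcnip3 KO. That is 5 counts in 5xFAD and 283 in Kcnip3 KO, a ratio of 0.018 with a counting interval of 0.00581 to 0.0426. Pcna, the replication clamp, had a log2 fold change of 0.56, and its pseudogene Pcna-ps2 on chromosome 19, with 99.2% identity over 781 bases, held 0.623, 0.284 and 0.982 CPM in 5xFAD, against 9.3, 7.1 and 10.02 CPM in Kcnip3 KO. Gm3650 on chromosome 18, with 99.9% identity to Spg11 over 747 bases, held 0, 0.142 and 0.0892 CPM in 5xFAD, against 5.95, 5.8 and 7.17 CPM in Kcnip3 KO. Kcnip3 KO-5xFAD libraries held 11.5, 10.2 and 10.4 CPM of Eif3j2 and WT 1 and WT 2 0.106 and 0.213 CPM, so Eif3j2 was high in all 6 libraries labelled as Kcnip3 knockouts. Reads between such copies are uncertain, so these values are not levels of 1 gene. The rule for copies also took genes that share only a short stretch with a gene of the window, such as Olfml3, Selplg and Rac2. With at least 300 aligned bases covering 50% of the outside gene, 13 tested copies remained, of which 0 were higher and 3 lower.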

How the data were processed

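RNA of hippocampus was sequenced after an mRNA library kit, per the labels' protocols. The authors deposited raw read counts per Ensembl gene, and a table of log2 TPM with unstated gene lengths. Tools listed for this, per the submitters' processing notes, were HISAT2 2.1.0 and featureCounts on mm10, after read checks by FastQC 0.11.9, and edgeR 3.38.4 under R 4.2.1. Neither a strand setting nor an annotation release is stated there. Counts of 5xFAD 1 to 3 and Kcnip3 KO 1 to 3 were tested with edgeR 4.0.16 in R 4.3.3 (filterByExpr, TMM, robust quasi-likelihood test, Benjamini-Hochberg adjustment over 15084 genes, threshold 0.05), with a common biological coefficient of variation of 15.1%. All adjusted p-values in the text are from this test unless another setting is named. Errors on log2 fold changes are standard errors. WT contrasts come from an edgeR fit of 10 libraries. DESeq2 1.42.0 and limma 3.58.1 served as alternatives. The scripts were tested on simulated data.

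Gene positions, lengths and GC content came from the GENCODE annotation of GRCm38, in which 241 of 55385 genes with 0.00278% of counts had no match. Genes within 10 Mb of Kcnip3, and genes with transcripts at least 90% identical to one there, were set apart. A narrower definition of a copy was chosen after seeing the data. Named genes are the genotype checks, the 10 largest differences each way, up to 4 called or 2 other members of each of 33 lists by p, and up to 12 called genes set apart. Other genes in the text were chosen after their values were seen, among them P2ry12, Sall1, Mef2c, Fos, Dusp1, Nr4a1, Nptx2, Egr3, Gpnmb, Spp1 and the KChIP family. The members and lists were chosen with earlier results of these data known. Counting intervals and floors of 3 counts cover counting error only. Some items are not reported here.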

Additional observations from a re-analysis of the deposited data

How the results depend on the processing

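Of 116 named genes 86 were called, 48 kept the call under every setting tried, 38 lost it in at least 1 and 0 of the called genes changed sign. The 422 higher and 140 lower genes became 1118 and 882 with no filter on low counts, 635 and 462 with DESeq2, 263 and 73 with limma on log2 TPM, 721 and 614 with all 12 libraries, and 719 and 483 with 10. With the length and GC correction 49 were lower. Leaving out 1 library gave 189 to 1155 higher and 9 to 1029 lower genes. The cause was not tested. Genes with no call that changed sign were App (0.025 with the correction, 0.026 with the block and the correction), Prlr (0.027 with the correction, -0.82 to 0.12 over the omissions), Sostdc1 (-0.041 with limma-voom, -0.33 with limma on log2 TPM, -0.20 to 0.91 over the omissions) and Kdm5d (0.10 with the correction, 0.10 with the block and the correction). Limma on log2 TPM moved the median of all genes to -0.15. The narrower definition of a copy left 3 called copies in place of 15.

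The labels link same-numbered libraries of the 2 groups by nothing but the number. The correlations of deviation with GC content given above were alike by number in 5xFAD and Kcnip3 KO. They were -0.33 and -0.37 for number 1, 0.29 and 0.23 for number 2, and 0.05 and 0.12 for number 3. Correlations with transcript length were less alike. In 5xFAD and Kcnip3 KO they were 0.36 and 0.26 for number 1, -0.38 and -0.08 for number 2, and 0.04 and -0.18 for number 3. A batch by number was not tested. The deviations of same-numbered libraries from the group means correlated at 0.18, -0.05 and -0.05, and not every library correlated best with its own number. With the replicate block 539 genes were higher and 440 lower, and with the block and the length and GC correction 246 and 52.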
